A study of Mus musculus with 8 samples.

Results

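The proteasome subunit genes were followed in blood progenitors of mice with and without Msi2, the gene of the RNA-binding protein Musashi-2. They were taken as all genes whose symbol begins with Psma, Psmb, Psmc, Psmd, Psme, Psmf or Psmg and goes on with a digit. 51 genes on the array met this rule, and 48 of them had a measured probe set of their own, among 10720 genes measured in all. LSK cells, the lineage-negative, Sca-1-positive and Kit-positive fraction of bone marrow in which blood stem cells and multipotent progenitors are found, were the source of all RNA. There were 4 control arrays, from normal mice of WT genotype, and 4 Msi2 KO arrays, from mice in which Msi2 had been knocked out conditionally, and the labels used here name no Cre driver, strain, age or time of deletion. Values are log2 signals of Affymetrix probe sets, normalized by the authors with RMA, so that a difference of 1 is a doubling of signal and levels of different genes cannot be compared. The study's design names 4 mice in each group, and p-values measure the spread between these arrays.

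The proteasome is the barrel-shaped protease that degrades most proteins tagged with ubiquitin. Its core is built of rings of alpha subunits, which form the gate (Psma genes), and rings of beta subunits, some of which carry the cutting sites (Psmb genes). A regulatory particle caps the core, with a ring of ATPases that unfold the substrate (Psmc genes) and non-ATPase subunits that bind and remove ubiquitin (Psmd genes). Other caps (Psme genes) open the core without ubiquitin, and dedicated chaperones (Psmg genes and some Psmd genes) put the complex together. Interferon exchanges the standard cutting subunits for Psmb8, Psmb9 and Psmb10, which yields the immunoproteasome of antigen presentation, a form that blood cells also make without stimulation. Psma8 is a paralog of Psma7 that takes its place in the proteasome of male germ cells.

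Of the 51 genes, 14 form the common core, 4 are immunoproteasome or thymus subunits, 6 are ATPases, 11 are non-ATPases, 5 are activators or inhibitors and 7 are assembly chaperones. Psma8 stands by itself, and 3 further symbols (Psmc3ip, Psme3ip1 and Psme2b) met the spelling of the rule. Psmc3ip encodes a cofactor of meiotic recombination and Psme3ip1 a nuclear partner of Psme3, so neither is a subunit. Of the members without a value, Psmb11, the thymus subunit, was listed at 0 on all 8 arrays. Psme2 and its near copy Psme2b share a single probe set that carries both names and were not analysed here. Of the other thymic epithelial markers, Foxn1, Krt5, Epcam and Aire were also listed at 0, and Krt8 read 3.44 to 4.18 in controls and 3.11 to 3.82 in KO. A listing at 0 does not show that a transcript is absent, since the labels do not describe the step behind it and it also struck probe sets of genes that other probe sets measured well, such as Psma1 and Psmc1.

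The promoters of Psmb9, Psmb8 and Psme1 are shown because in these interferon-induced genes no KO array reached the lowest control. Each is the RefSeq window of 250 bases before to 50 after the transcription start in GRCm38.p6, at chr17:34187281-34187580 on the minus strand for Psmb9, chr17:34197945-34198244 on the plus strand for Psmb8 and chr14:55578244-55578543 on the plus strand for Psme1. Capitals mark a CCAAT box (CCAAT) in Psmb9, a GAS-like element (TTCNNNGAA) in Psmb8 and an ISRE-like element (GAAA, any 2 bases, GAAA) in Psme1, and all motifs were searched on both strands of every window, where matches of different motifs may overlap.
Psmb9: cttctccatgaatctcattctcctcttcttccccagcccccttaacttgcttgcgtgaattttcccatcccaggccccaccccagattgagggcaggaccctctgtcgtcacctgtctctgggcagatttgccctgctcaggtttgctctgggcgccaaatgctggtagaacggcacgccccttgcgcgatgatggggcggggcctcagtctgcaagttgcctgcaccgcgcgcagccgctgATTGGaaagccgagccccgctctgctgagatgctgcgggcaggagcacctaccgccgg
Psmb8: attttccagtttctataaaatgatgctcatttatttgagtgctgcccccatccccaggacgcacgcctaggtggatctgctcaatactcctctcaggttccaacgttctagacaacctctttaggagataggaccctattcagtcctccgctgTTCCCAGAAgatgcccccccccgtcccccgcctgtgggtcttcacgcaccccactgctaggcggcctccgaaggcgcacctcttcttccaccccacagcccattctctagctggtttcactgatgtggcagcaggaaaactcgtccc
Psme1: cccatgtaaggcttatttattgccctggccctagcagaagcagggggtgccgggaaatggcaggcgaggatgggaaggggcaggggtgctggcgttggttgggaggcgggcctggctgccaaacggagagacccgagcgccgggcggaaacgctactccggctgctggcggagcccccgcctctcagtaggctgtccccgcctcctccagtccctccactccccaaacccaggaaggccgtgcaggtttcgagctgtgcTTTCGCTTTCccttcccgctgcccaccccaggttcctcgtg
The window of Psmb9 overlaps that of Tap1, a subunit of the peptide transporter of antigen presentation, over 275 bases, and the starts of these genes lie 226 bases apart on opposite strands. A window was found for 43 members (47 windows). The ISRE-like element occurred in 5 of these windows (10.6%) against 3.44% of all 32851 windows, and those of Psmb3, Psmd4, Psmd9 and Psmg4 held it besides Psme1. The GAS-like element occurred in 3 (6.38% against 8.30%) and the CCAAT box in 16 (34.0% against 37.4%). The motif TGACNNNGC, which resembles the antioxidant response element bound by Nfe2l1, the factor that raises proteasome genes when the proteasome is blocked, occurred in 6 (12.8% against 12.4%). These are matches of letters only.

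Some facts of the arrays bear on what follows. On the probe set that represents it, Msi2 read 11.40 to 11.65 in controls and 11.36, 11.20, 8.73 and 10.38 on Msi2 KO 1 to Msi2 KO 4. Its signal thus remained in KO to an uneven degree, and whether this signal comes from intact transcript was not tested. Msi2 KO 3 stood apart on the first principal component over genes (50.5 against -26.7 to 11) and in the 3' minus 5' signal of the actin control probe sets (0.287 against -0.118 to 0.133). Xist was low (4.79 to 5.55) on Msi2 KO 1 and Msi2 KO 2, as well as in control 1, and high (11.92 to 12.51) elsewhere. Of the LSK gate and its progenitors, Kit, Ptprc, Cd34 and Flt3 were measured (log2 of summed signal 11.86 to 11.93 in controls and 11.08 to 11.88 in KO, with Ptprc lower on all KO arrays), and Ly6a had no probe set of its own in the annotation used here. The lineage markers Cd3e, Cd4, Cd8a, Ms4a1 and Itgam were listed at 0. The log2 of the summed signal of 7 measured erythroid markers was 10.17 to 12.01 in controls and 11.46 to 13.58 in KO, with Hba-a1 at 0 and Hbb-bt without a probe set of its own, and that of 6 measured macrophage markers was 8.20 to 10.07 and 9.80 to 11.06, with C1qa and C1qc at 0. All 7 erythroid markers (median difference 1.38) and all 6 macrophage markers (median 1.07) had higher means in KO, and 4 and 2 of them an unadjusted limma p under 0.05 (5.74% of all genes). Without overlap were 0 of 7 and 1 of 6 (Cd68; 3.63% of all genes). The part of these cells in the values below was not tested, and in bulk RNA fewer cells of a type and less RNA per cell cannot be told apart.

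No member passed the threshold of 0.05 on the adjusted p of limma (0 of 48, where 0% of all 10720 genes passed). Limma is a linear model that draws the variance of each gene toward a common value. At an unadjusted p under 0.05, 7 members were higher and 2 lower in KO, which is 14.6% and 4.17% of the measured members against 5.74% and 5.66% of all genes. Without Msi2 KO 3 it was 3 higher and 2 lower (4.9% and 5.28% of all genes), and the median difference of the members went from 0.108 to 0.008. The groups did not overlap for 8 members. Psmb3, Psmd8, Psmd11 and Psmg3 were higher on all KO arrays than on any control (8.33% of members against 3.63% of genes), and Psma8, Psmb8, Psmb9 and Psme1 were lower (8.33% against 3.48%). The difference of Psma8 was known beforehand. Without it, 3 of 47 members were lower without overlap, and 1 was lower at an unadjusted limma p under 0.05. Differences were small apart from Psma8, with a median over the measured members of 0.108 (0.002 over all genes) and 43 of 48 within 0.4 of 0. In sum 33 members were higher and 15 lower (68.8% higher, against 50.4% of all genes). The direction can depend on the probe set, since 10 of the 23 members with more than 1 measured probe set had probe sets in both directions. These were Psma1, Psma6, Psmb1, Psmc2, Psmc3ip, Psmc6, Psmd7, Psmd9, Psmd11 and Psmd13.

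**Figure D1:**
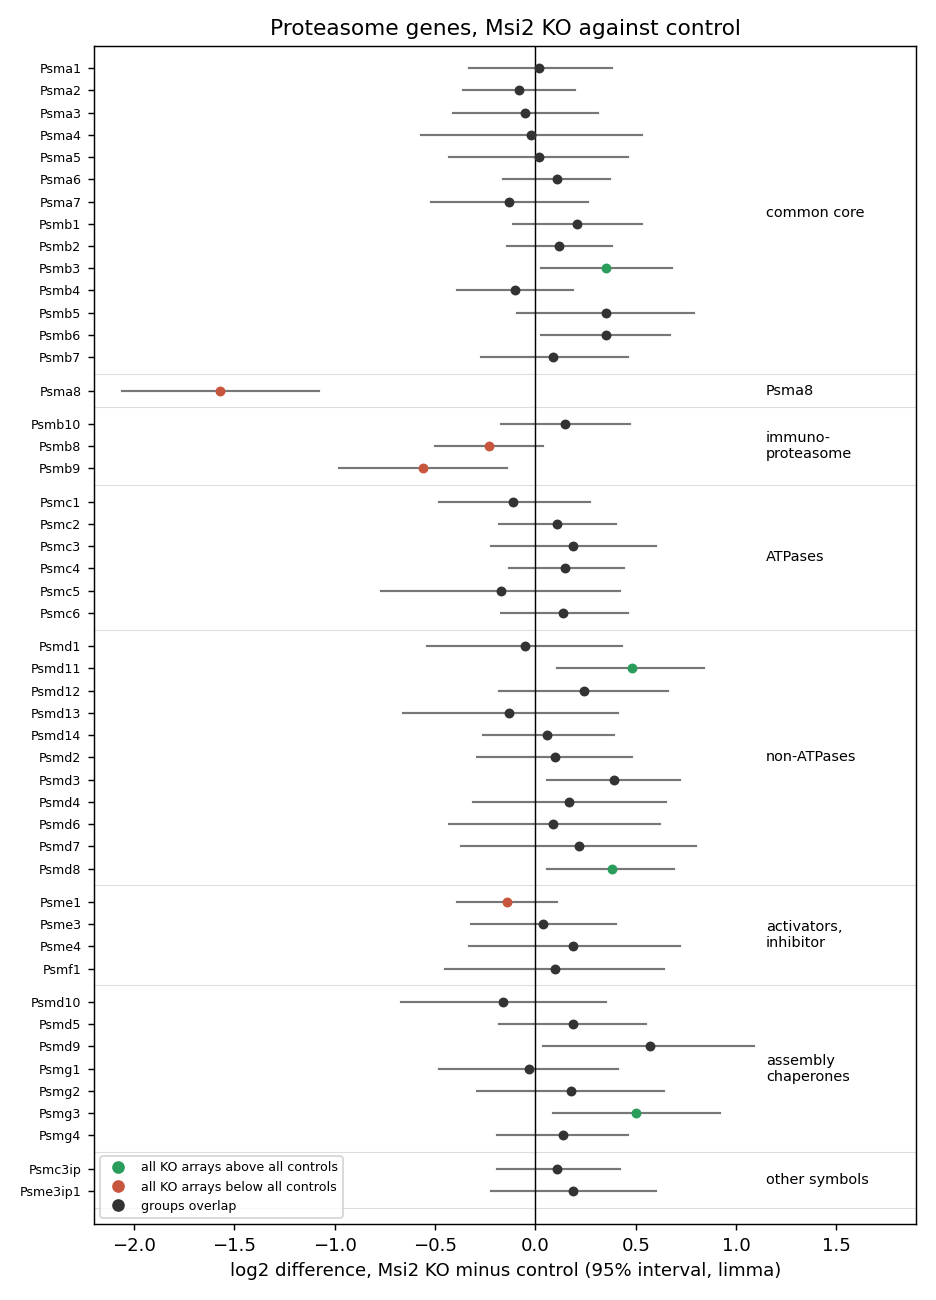
Log2 difference between Msi2 KO and control (horizontal axis) for the 48 measured genes, ordered by role, with the 95% interval of limma. Psma8 at -1.57 lies far to the left, Psmb9 follows at -0.56, and 4 genes on the right had all KO arrays above all controls.

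The signal of Psma8, the germ-cell alpha subunit, was lower by -1.57 ± 0.22 (SE) in KO, a 2.97-fold difference, and no other member came near this size. Its single probe set read 7.86, 8.08, 8.23 and 8.31 on control 1 to control 4. On Msi2 KO 1 to Msi2 KO 4 it read 6.06, 6.42, 7.08 and 6.64. All KO arrays thus lay below all controls, Msi2 KO 3 least far. As a share of the control mean the KO arrays lay at 23.9%, 30.8%, 48.5% and 35.9%, and the controls between 83.6% and 114%. The 95% interval of the difference was -2.06 to -1.08. The adjusted p of limma was 0.176 (0.0523 to 0.379 over the alternatives), and an exact permutation test (two-sided) gave 0.0286, the smallest p that 4 arrays against 4 allow. Psma8 was singled out with this difference already known, so these values describe it and are no independent support.

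Over the 4 KO arrays the order of Psma8 was the inverse of that of the remaining Msi2 signal. Msi2 was 11.36, 11.20, 10.38 and 8.73 on Msi2 KO 1, Msi2 KO 2, Msi2 KO 4 and Msi2 KO 3, where Psma8 was 6.06, 6.42, 6.64 and 7.08. This order did not hold for differences within each array, taken relative to the control mean. On the same 4 arrays in turn, Psma8 minus the mean of the common core subunits was -2.08, -1.55, -1.65 and -1.36. Psma8 minus Psma7 was -1.89, -1.14, -1.49 and -1.26. The order of the Psma8 signal over so few arrays was not tested. Msi2 KO 1 and Msi2 KO 2, which come first in it, are also the KO arrays with low Xist, and the part of Xist in this order was not tested. The difference was present within both levels of Xist. On the arrays with low Xist, Psma8 was 7.86 on control 1 against 6.06 and 6.42 on Msi2 KO 1 and Msi2 KO 2. Among those with high Xist it was 8.08 to 8.31 in controls against 7.08 and 6.64, a difference of -1.35 (limma adjusted p 0.168). With Xist as a covariate it was -1.44 (limma adjusted p 0.0547), and without Msi2 KO 3 it was -1.75 (limma adjusted p 0.0997).

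The 10 germ-cell markers chosen here besides Psma8 were listed at 0 or dim, and their groups overlapped where measured. Of these, Dazl, Sycp1, Sycp2, Dmc1, Stra8, Mael, Tex101 and Hormad1 were listed at 0 on all arrays. Ddx4, a germ-line RNA helicase, read 3.10 to 3.42 in controls and 3.16 to 4.01 in KO, and Sycp3, of the synaptonemal complex, 4.17 to 4.42 and 4.07 to 4.66. The lowest value above 0 in the table is 2.79. Of the genes next to Psma8 in the RefSeq table, Ss18 and Taf4b were measured. Ss18, a subunit of a chromatin remodeller, was at 9.74 in both groups (-0.01 ± 0.12, SE). Taf4b, a subunit of the general factor TFIID, was dim and went the other way, with 4.74 to 5.43 in controls and 5.38 to 6.01 in KO (0.46 ± 0.20, SE, limma adjusted p 0.423). Psma8 has a single probe set on this array, so no further probe set could be set beside it.

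The common core subunits differed far less than Psma8, each by 0.35 or less in size. Psma7, whose place Psma8 takes, read 11.54, 11.52, 11.49 and 11.38 in controls and 11.31, 10.92, 11.70 and 11.49 in KO. Its groups overlapped, with a difference of -0.13 ± 0.17 (SE; 95% interval -0.52 to 0.26), and its second bright probe set gave -0.10. Within each array, Psma8 minus Psma7 relative to the control mean lay between -0.32 and 0.29 in controls and at -1.89, -1.14, -1.26 and -1.49 in KO. The mean was lower by -1.44 in KO (two-sided exact permutation p 0.0286). Psma8 minus the mean of the 14 common core subunits lay between -0.27 and 0.20 in controls and at -2.08, -1.55, -1.36 and -1.65 in KO, lower by -1.66 (two-sided exact permutation p 0.0286). Both p-values are the smallest this design allows, both comparisons carry the difference of Psma8 known beforehand, and neither p stays under 0.05 where an array is left out (0.0571, the smallest for 3 against 4) or labels are exchanged only within levels of Xist (0.0667), in each case again the smallest possible.

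**Figure D2:**
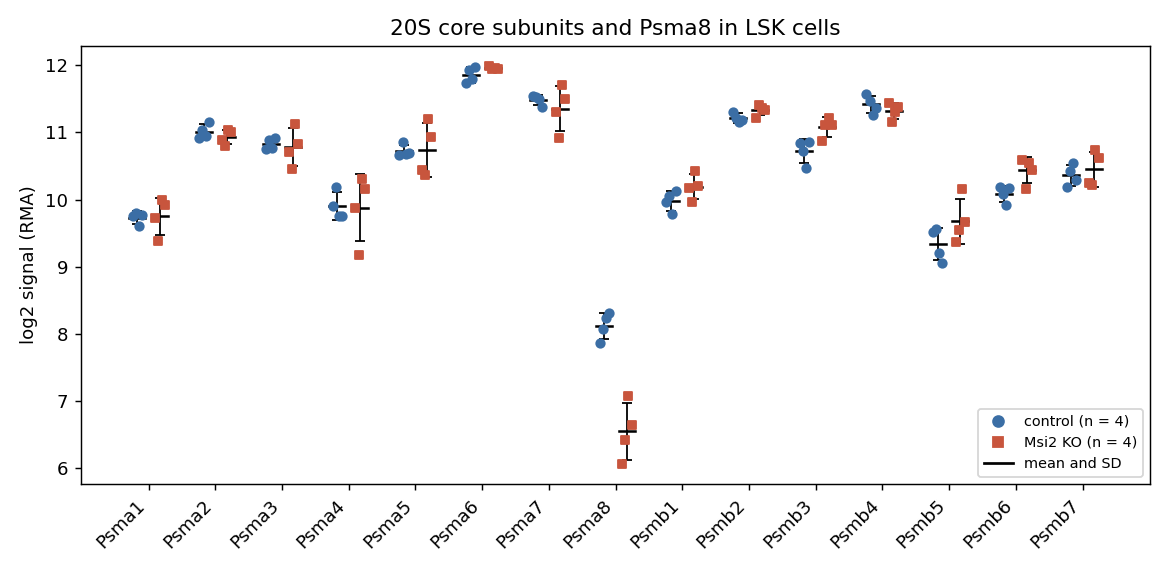
Log2 signal (vertical axis) of the 14 common core subunits and Psma8 on each array, with mean and SD of 4 control (circles) and 4 Msi2 KO arrays (squares). For Psma8 all KO points lie below all controls, while the differences of the other alpha subunits are between -0.13 and 0.11. Heights of different genes are not comparable.

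Within the common core no gene passed the test, and the balance of the alpha ring turned on single arrays. The alpha subunits Psma1 to Psma7 had differences of -0.13 to 0.11 (median -0.020), with 3 higher and 4 lower. Of the beta subunits 6 of 7 were higher (median 0.209), and the lower one was Psmb4 at -0.10. Psmb3, a structural beta subunit, read 10.84, 10.72, 10.47 and 10.86 in controls and 10.87, 11.11, 11.22 and 11.11 in KO. That is 0.35 ± 0.14 (SE) higher, without overlap, and its second probe set gave 0.33. Psmb6, which carries the caspase-like site, read 10.18, 10.08, 9.92 and 10.17 in controls and 10.59, 10.16, 10.55 and 10.44 in KO. It was 0.35 ± 0.14 (SE) higher, and only Msi2 KO 2 lay within the controls. Psmb5, of the chymotrypsin-like site, was also 0.35 higher, with an SE of 0.20, and 0.19 without Msi2 KO 3. Psmb7, of the trypsin-like site, was at 0.09, Psmb1 at 0.21 and Psmb2 at 0.12. The limma adjusted p of the 14 subunits ran from 0.409 to 0.987. Over the whole common core 9 were higher and 5 lower, with a median of 0.057, and without Msi2 KO 3 it was 7 and 7, with a median of -0.028. By ring, the alpha subunits were 1 higher and 6 lower without Msi2 KO 3 (median -0.140), but 6 higher and 1 lower without Msi2 KO 2 (median 0.111). The beta subunits were 6 higher and 1 lower in both settings, with medians of 0.133 and 0.281. The difference between the rings was not tested.

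The interferon-induced subunits went the other way from their standard partners at 2 of the 3 cutting sites. Psmb9, which replaces Psmb6, read 11.51, 11.13, 11.06 and 11.04 in controls and 10.90, 10.56, 10.21 and 10.84 in KO. All KO arrays were below the controls, by -0.56 ± 0.19 (SE), a 1.47-fold difference (limma adjusted p 0.360). Psmb8, which replaces Psmb5, read 11.52, 11.41, 11.39 and 11.39 in controls and 11.27, 11.10, 11.07 and 11.33 in KO. Its groups did not overlap either, at -0.23 ± 0.12 (SE; limma adjusted p 0.505), and its dim second probe set gave -0.09. Psmb10, which replaces Psmb7, read 9.38, 9.11, 9.06 and 9.21 in controls and 9.42, 9.50, 9.08 and 9.38 in KO. It was 0.15 ± 0.14 (SE) higher, and the groups overlapped. Psme1, a subunit of the interferon-induced cap, read 11.66, 11.61, 11.68 and 11.62 in controls and 11.47, 11.52, 11.58 and 11.44 in KO. Its arrays varied little, so that a difference of only -0.14 ± 0.11 (SE; limma adjusted p 0.683) left no overlap. The differences without Msi2 KO 3 were -0.42 for Psmb9, -0.19 for Psmb8, 0.24 for Psmb10 and -0.16 for Psme1, and Psmb8, Psmb9 and Psme1 still did not overlap with the controls. In that setting 5.42% of all genes were lower without overlap.

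Each induced subunit was also set against its partner on the same array. Psmb9 minus Psmb6, relative to the control mean, was -0.23 to 0.23 in controls and -0.79, -0.70, -1.44 and -0.70 in KO, a mean difference of -0.91. The groups stood apart. Psmb8 minus Psmb5 was -0.24 to 0.24 in controls and -0.19, -0.53, -1.17 and -0.42 in KO, a mean of -0.58, with Msi2 KO 1 inside the control range. Psmb10 minus Psmb7 differed by 0.06, with overlap. These pairs were formed with the single-gene values known and carry no test.

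The other genes of antigen processing had lower means in KO, with overlap in each. The differences of all 7 measured genes were below 0 (median -0.178), where those of 50.4% of all genes were above 0. Much of this lay on Msi2 KO 3. Set against the control mean, the median of the 7 genes was -0.01, -0.05, -0.36 and -0.12 on Msi2 KO 1 to Msi2 KO 4. Controls ran from -0.10 to 0.12. Without overlap were 0 of the 7, near the share over all genes (3.48% lower and 3.63% higher). Tap1, which starts beside Psmb9, read 9.18, 9.16, 9.45 and 8.93 in controls and 9.26, 9.24, 8.97 and 9.08 in KO, a difference of -0.04 ± 0.15 (SE). Psmb9 and Tap1, whose promoter windows overlap, had differences of -0.56 and -0.04, and the gap between them was not tested. Tap2, the other transporter subunit, was at -0.16, Tapbp, the chaperone that joins the transporter to MHC class I, at -0.18, and B2m, the light chain of MHC class I, at -0.13. Erap1, the peptidase that trims peptides for MHC class I, read 7.46 to 8.39 in controls and 7.21 to 7.64 in KO (-0.51 ± 0.20, SE, limma adjusted p 0.408). Nlrc5, the activator of MHC class I genes, was at -0.33 and Irf1, an interferon-induced activator, at -0.27. Irf1 was lowest on Msi2 KO 3 (7.94) and highest on Msi2 KO 1 (9.42).

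**Figure D3:**
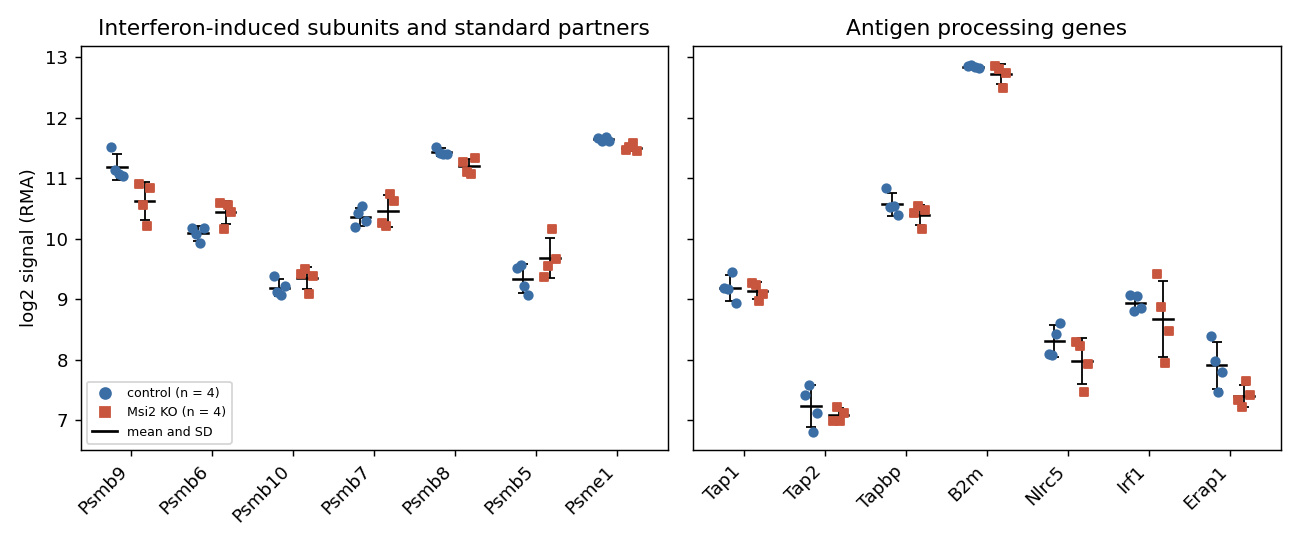
Log2 signal (vertical axis) of interferon-induced subunits beside the standard subunits they replace (left) and of antigen processing genes (right), per array, with mean and SD of 4 control (circles) and 4 Msi2 KO arrays (squares). Psmb9, Psmb8 and Psme1 lie below all controls on every KO array, while Tap1 overlaps fully.

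In the regulatory particle 13 of 17 subunits had a higher mean in KO (50.4% of all genes did), and 15 of 17 overlapped between groups. The 2 others were higher without overlap (3.63% of all genes). The ATPases that unfold the substrate had differences of -0.17 (Psmc5) to 0.19 (Psmc3), 4 of 6 of them above 0, and all 6 overlapped. The median of the ATPases went from 0.128 to 0.029 without Msi2 KO 3, with 4 higher and 2 lower in both settings. Psmc4 had the smallest p among them, at 10, 9.92, 9.78 and 10 in controls and 10.02, 10.08, 10.26 and 9.95 in KO (0.15 ± 0.13, SE, limma adjusted p 0.700). Psmc3 came next, with 9.81 to 9.93 in controls and 9.97, 9.69, 10.55 and 9.98 in KO (0.19 ± 0.18, SE). Psmc1 was at -0.11, Psmc2 at 0.11 and Psmc6 at 0.14.

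Of the non-ATPases 9 of 11 were higher (median 0.173). Psmd11, a subunit of the lid, read 9.54, 9.89, 9.75 and 9.48 in controls and 9.91, 10.13, 10.47 and 10.05 in KO. It was 0.48 ± 0.16 (SE) higher, a 1.39-fold difference without overlap (limma adjusted p 0.363). Its 6 measured probe sets ran from -0.03 to 0.82 and had the widest spread of any member (0.85), with 5 of 6 above 0. Psmd8, also of the lid, read 9.06, 9.03, 8.74 and 9.05 in controls and 9.47, 9.12, 9.34 and 9.46 in KO, 0.38 ± 0.14 (SE) higher without overlap (limma adjusted p 0.388). Psmd3 was 0.39 ± 0.15 (SE) higher, with Msi2 KO 4 (8.52) inside the range of the controls (8.38 to 8.56). The scaffold subunits Psmd1 and Psmd2, which hold the particle together, were at -0.05 and 0.10. The ubiquitin receptor Psmd4 was at 0.17 and the deubiquitinase Psmd14 at 0.06. Psmd6 (0.09), Psmd7 (0.22), Psmd12 (0.24) and Psmd13 (-0.13) are further subunits of the particle. Without Msi2 KO 3 the non-ATPases were 5 higher and 6 lower (median -0.020), with Psmd8 and Psmd11 still above all controls.

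The other caps and the inhibitor had differences of 0.04 to 0.19, and all 3 overlapped between groups. Psme3, the nuclear cap, was at 0.04, and its KO arrays lay on both sides of the controls (11.28 and 11.46 below, 11.83 and 11.88 above, with controls at 11.54 to 11.61). Psme4, the cap of sperm and of the nucleus, read 7.21, 8, 7.69 and 7.90 in controls and 7.62, 8.26, 8.17 and 7.53 in KO (0.19 ± 0.23, SE, limma adjusted p 0.804). Its 4 measured probe sets were all above 0, from 0.19 to 0.49. Psmf1, known as an inhibitor of the core in vitro, was at 0.10 ± 0.24 (SE), and its other probe sets were at 0.23, 0.28 and 0.33.

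Among the assembly chaperones, 5 of 7 were higher (median 0.176), where 50.4% of all genes were. Psmg3, which helps to build the alpha ring, read 8.54, 8.33, 8.16 and 8.07 in controls and 8.61, 8.62, 9.24 and 8.64 in KO. The groups did not overlap, at 0.50 ± 0.18 (SE), a 1.42-fold difference (limma adjusted p 0.385), and without Msi2 KO 3 it was 0.35. Its partner Psmg4 was at 0.14, and Psmg1 and Psmg2, the other chaperone pair of the alpha ring, at -0.03 and 0.18. Psmg2 differed between probe sets, with 0.18, 0.41 and 0.66. Psmd9, a chaperone of the ATPase ring, read 7.30, 8.09, 7.47 and 7.41 in controls and 7.80, 7.88, 8.64 and 8.22 in KO (0.57 ± 0.23, SE, limma adjusted p 0.421), with control 2 inside the KO range. Its dim second probe set gave -0.12, and the mean of both 0.23. Psmd5 and Psmd10, which act on the same ring, were at 0.19 and -0.16. Of the symbols that are no subunits, Psme3ip1 was at 0.19 and Psmc3ip at 0.11, with -0.17 on the second probe set of Psmc3ip.

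A pattern by array ran through most members. Msi2 KO 3 was the highest of the 8 arrays for 31 of 48 members (64.6%, against 23.1% of all genes), among them all 6 ATPases and 9 of 11 non-ATPases. Msi2 KO 2 was the lowest for 16 (33.3% against 13.3%), 6 of them in the alpha ring, and both held for 12 (461 genes, or 4.3%, in all). Set against the control mean, the median of the measured members stood at 0.38 for Msi2 KO 3, at 0.11 for Msi2 KO 4 and at -0.14 for Msi2 KO 2. Msi2 KO 1 was at 0, and controls ran from -0.07 to 0.05. Psmc5, an ATPase, had the widest spread of the KO arrays among the members, at 7.85 on Msi2 KO 2, 9.25 on Msi2 KO 3 and 8.61 to 8.87 in controls. Psma4, a common alpha subunit, came next, at 9.18 on Msi2 KO 2, 10.31 on Msi2 KO 3 and 9.76 to 10.19 in controls. The SD of the KO arrays was accordingly 0.59 for Psmc5 and 0.50 for Psma4, against 0.12 and 0.20 in controls. Msi2 KO 3 was highest for 0 of the measured immunoproteasome subunits, and Psmb8 and Psmb9 were lowest there. Without Msi2 KO 3 the measured members were 25 higher and 23 lower (52.1% higher, against 49.7% of all genes), and the same 8 genes did not overlap (4 higher and 4 lower, where 5.3% and 5.42% of all genes did not). Without Msi2 KO 2 they were 40 higher and 8 lower (83.3% against 50.2%). There 8 members were higher without overlap (5.18% of all genes), Psmb1, Psmb6, Psmc3 and Psmc6 having joined, and 4 were lower (5.41%). Msi2 KO 3 was also highest in summed erythroid markers and in actin 3' minus 5' signal, and the part of either in this pattern was not tested.

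**Figure D4:**
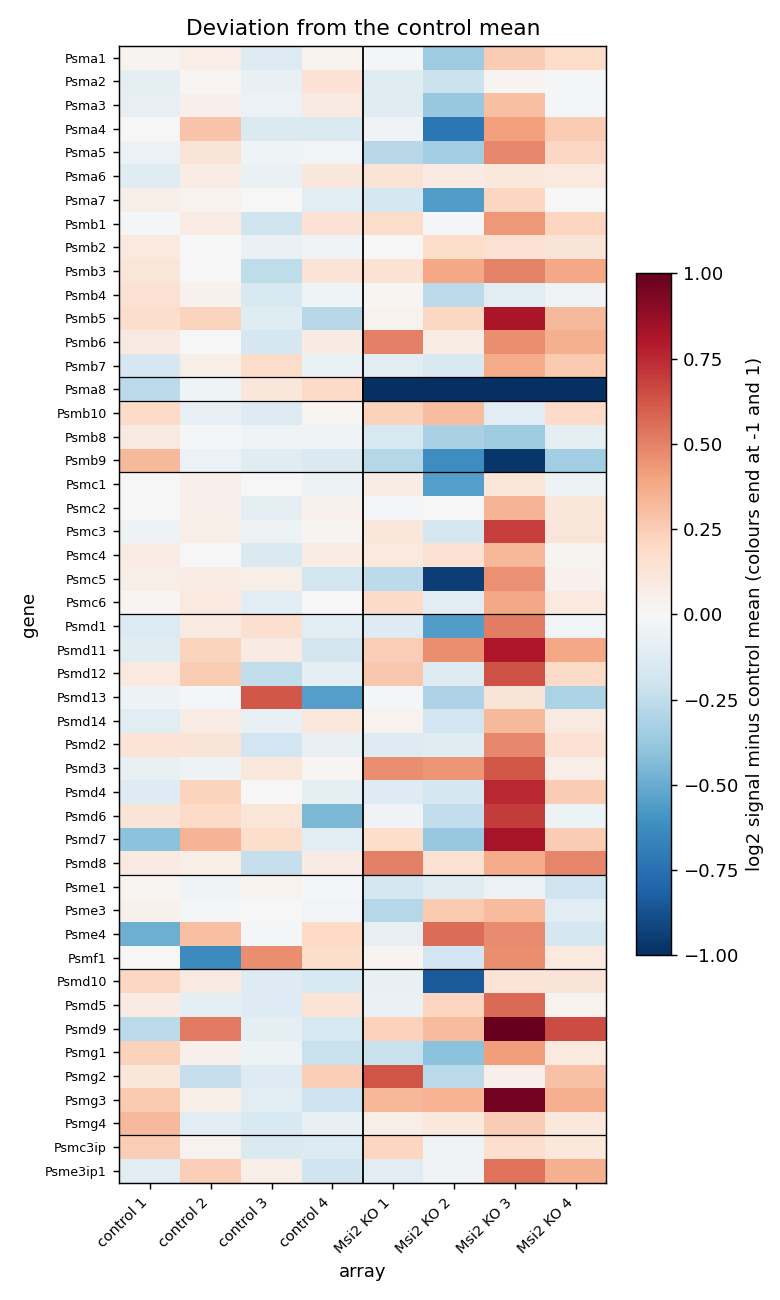
Log2 signal minus the control mean (colour) for the 48 measured genes (rows, grouped by role) on the 8 arrays (columns). Msi2 KO 3 is red for most genes (median deviation 0.38) and Msi2 KO 2 blue for many (-0.14), while Psma8 is blue on all 4 KO arrays.

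Other genes of proteasome supply and use showed no common direction. Of 29 such genes 20 had a measured probe set of their own, and of these 11 were above 0 and 9 below (median 0.011). All 20 overlapped between groups, where 3.63% of all genes were higher and 3.48% lower without overlap. An unadjusted limma p under 0.05 was reached by 0 of the 20, against 11.4% of all genes. Txnl1, a thioredoxin-like protein of the regulatory particle, had the smallest p, with 9.91, 10.28, 10.18 and 10.18 in controls and 10.22, 10.49, 10.97 and 10.43 in KO (0.39 ± 0.18, SE, limma adjusted p 0.457). Nfe2l1, the activator of proteasome genes, read 7.91 to 8.23 in controls and 7.47 to 8.07 in KO (-0.29 ± 0.16, SE, limma adjusted p 0.526). Uchl5, a deubiquitinase of the regulatory particle, read 10.83 to 11.24 in controls and 10.46 to 11.13 in KO (-0.19 ± 0.17, SE).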

How the data were processed

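RNA of LSK cells was measured on 8 arrays. Per the submitters' processing notes the authors used RMA (version not given in the sources used here), and the deposited values are on a log2 scale. Of 45101 probe sets, 20664 (45.8%) were exactly 0 on all 8 arrays through a step not given in the sources used here. They were left out. Probe sets were named through GEO's platform annotation, with symbols updated by gene ID to RefSeq of GRCm38.p6. A gene was represented by its probe set of 1 gene with the highest mean over 8 arrays, which gave 10720 genes.

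Msi2 KO was compared with control by limma 3.58.1 in R 4.3.3 (lmFit, eBayes, two-sided), with Benjamini-Hochberg adjustment over all genes and a threshold of 0.05. Each p named as limma's is from this fit. In the main setting, exact permutation tests (SciPy 1.17.1) used all 70 assignments of the arrays. Settings with fewer arrays allowed fewer assignments. Exchanging labels within levels of Xist allowed 30, and within replicate blocks 16. The procedure was tested on simulated data. Every member was named. Values per array were given for Psma8, Psma7, the interferon-induced members and the 2 members of each group with the smallest p. Members and lists were chosen with earlier results of these data known. Alternatives were other normalizations, probe set choices, priors, weights per array, a block for the replicate number, Xist as a covariate and leaving out each array. The number of arrays limits the precision.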

Additional observations from a re-analysis of the deposited data

Results flagged for a closer look

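Among the 48 measured members in 2 groups each (96 groups of 4 arrays), 5 held an array far from the other 3, and chance flags about 1 in 20. Psmb8 read 11.52 on control 1, with the other controls at 11.39 to 11.41. Psmc5 read 8.61 on control 4 (others 8.85 to 8.87), and Psmd6 9.44 on the same array (others 10.01 to 10.08). Psmd8 read 8.74 on control 3 (others 9.03 to 9.06). Psmg3 read 9.24 on Msi2 KO 3, with the other KO arrays at 8.61 to 8.64. Without the array in question the differences between KO and control stayed on the same side of 0 for Psmb8, Psmc5, Psmd8 and Psmg3, while that of Psmd6 went from 0.09 to -0.06.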

How the results depend on the processing

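No member passed the adjusted p in any alternative. Of 844 member values under alternatives 797 kept their direction and 47 in 19 members reversed, 28 of them where an array was left out. With the mean of all probe sets Psma1 was -0.13 and Psmc3ip -0.03, and without shared probe sets Psmc3ip was -0.17. With array weights Psma5 was -0.01, Psmd6 -0.02 and Psme4 -0.02. With Xist as a covariate Psma3 was 0.02, Psma4 0.10, Psmd1 0.06 and Psmg1 0.02, and 4 genes were called (Fcer1a, Fscn1, Mt1 and Nhsl1). On high-Xist arrays alone, an alternative chosen after seeing the data, Psma3 was 0.12, Psma4 0.33, Psma7 0.13, Psmc1 0.03, Psmc5 0.27, Psmd1 0.19, Psmd10 0.21, Psme4 -0.02 and Psmg1 0.33, and the median of the common core was 0.243. The cause was not tested.

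Psma8 minus the common core was -1.66 (exact permutation p 0.125) with the replicate block, -1.57 (exact p 0.0667) within levels of Xist, -1.60 (exact p 0.2) on high-Xist arrays and -1.76 to -1.52 with an array left out. Psma8 minus Psma7 was -1.44, -1.38, -1.48 and -1.55 to -1.30 in these settings. Each of these p-values is the smallest its setting allows. Correlations of deviations between same-numbered arrays were 0.137, -0.172, 0.075 and -0.021, which does not show that the numbers pair the arrays, and with the replicate block Psma8 was -1.57 (limma adjusted p 0.182).

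With an array left out, 0 to 1 genes were called (Zg16, without Msi2 KO 1), and differences ran from -0.06 to 0.14 for Psma1, -0.17 to 0.06 for Psma3, -0.16 to 0.21 for Psma4, -0.14 to 0.14 for Psma5, -0.24 to 0.02 for Psma7, -0.18 to 0.04 for Psmc1, -0.38 to 0.08 for Psmc5, -0.24 to 0.12 for Psmd1, -0.26 to 0.07 for Psmd10, -0.31 to 0.08 for Psmd13, -0.03 to 0.15 for Psmd14, -0.03 to 0.17 for Psmd2, -0.02 to 0.29 for Psmd4, -0.11 to 0.21 for Psmd6, -0.05 to 0.15 for Psme3, -0.11 to 0.25 for Psmf1 and -0.18 to 0.09 for Psmg1. Most of these ranges end at the values without Msi2 KO 3 and without Msi2 KO 2. Dim probe sets near the lowest signal limit Ddx4, Sycp3 and Taf4b.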
